A study of Mus musculus with 4 samples.

Results

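Peaks of accessible chromatin were described at 8 genes of the mouse, the GATA transcription factor genes Gata1 to Gata6 and the genes of their FOG cofactors, Zfpm1 and Zfpm2. They were picked by name from 21631 protein-coding genes of the RefSeq table. A peak was given to one of them when it lay inside the gene or within 1 kb of it, or when the nearest end of any protein-coding gene within 100 kb was an end of that gene. By this rule the 8 genes received 31 of 44139 peaks in Gata2cKO germ cells and 41 of 49394 in Gata2WT germ cells.

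The peaks came from ATAC-seq, in which the transposase Tn5 cuts and tags open DNA, on germ cells of female C57BL/6J embryos at E14.5 (embryonic day). After trypsin treatment of the ovaries, magnetic beads carrying an antibody to the germ cell surface antigen SSEA1 were used for enrichment, and each library used about 10000 cells. In Gata2cKO embryos floxed Gata2 was deleted by Prdm1-Cre, a recombinase driven from a gene that is switched on when germ cells are specified and also in some other cells of the embryo. Gata2WT embryos served as controls. Both came from a cross of Gata2flox/+ Prdm1-Cre males with Gata2flox/flox females, so every embryo inherited a floxed allele from its mother. The labels do not say which offspring genotypes were counted as Gata2WT, which part of Gata2 the floxed allele removes, or how many embryos went into a library. There were 4 samples, 2 of Gata2cKO and 2 of Gata2WT, with 1 combined peak list per genotype. No replicate error can be had from such lists, so no test between genotypes was made, and intervals are 95% Clopper-Pearson intervals for counting error only.

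GATA factors bind the letters GATA in DNA through a pair of zinc fingers. GATA1, GATA2 and GATA3 are best known from blood: GATA2 from stem and progenitor cells, GATA1 from red cells and megakaryocytes, and GATA3 from T cells. GATA4, GATA5 and GATA6 act in heart, gut and other organs of mesoderm and endoderm, and GATA4 also in the somatic cells of the gonad. FOG1, encoded by Zfpm1, and FOG2, encoded by Zfpm2, do not bind GATA sites themselves but dock on the amino-terminal finger of GATA factors and bring in corepressors such as the NuRD complex.

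Where transcription of these genes starts is given by RefSeq (GRCm38.p6), whose promoter windows of 300 bases, 250 before to 50 after a start, covered 6 starts of 5 of the genes: Gata1, Gata2 with 2 starts, Gata3, Gata5 and Zfpm1. The 250 bases before a start follow for the pair of Gata2 starts, which differed in their peaks, and for Zfpm1, Gata5 and Gata3, whose peaks lay on or close to the start. Capitals mark GC boxes, read as GGGCGG on either strand, and CCAAT boxes, read as CCAAT on either strand. A GATA motif was taken as GATA with A or T before it and A or G after it, on either strand, and none lay in the bases printed.
Gata2 distal start, chr6:88193641-88193890, forward strand: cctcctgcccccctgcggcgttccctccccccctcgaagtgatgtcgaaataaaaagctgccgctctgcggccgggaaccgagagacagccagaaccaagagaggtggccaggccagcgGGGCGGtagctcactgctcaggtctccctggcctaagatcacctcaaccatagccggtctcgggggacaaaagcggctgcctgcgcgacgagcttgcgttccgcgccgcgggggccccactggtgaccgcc
Gata2 proximal start, chr6:88198414-88198663, forward strand: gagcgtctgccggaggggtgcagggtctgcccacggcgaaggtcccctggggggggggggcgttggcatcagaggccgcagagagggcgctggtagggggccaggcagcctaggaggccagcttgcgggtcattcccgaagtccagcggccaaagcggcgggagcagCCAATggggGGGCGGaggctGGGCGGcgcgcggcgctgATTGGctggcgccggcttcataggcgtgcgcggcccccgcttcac
Zfpm1 start, chr8:122281891-122282140, forward strand: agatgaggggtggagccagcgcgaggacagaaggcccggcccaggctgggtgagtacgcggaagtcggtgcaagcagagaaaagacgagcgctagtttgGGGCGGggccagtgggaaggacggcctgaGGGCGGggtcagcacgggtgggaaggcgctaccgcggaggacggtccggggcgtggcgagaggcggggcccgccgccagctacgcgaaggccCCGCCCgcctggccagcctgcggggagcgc
Gata5 start, chr2:180334680-180334929, reverse strand: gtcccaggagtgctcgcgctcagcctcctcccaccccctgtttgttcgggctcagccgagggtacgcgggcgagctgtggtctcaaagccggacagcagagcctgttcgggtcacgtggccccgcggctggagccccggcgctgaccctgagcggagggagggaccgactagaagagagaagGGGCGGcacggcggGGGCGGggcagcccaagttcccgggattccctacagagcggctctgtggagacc
Gata3 start, chr2:9878601-9878850, reverse strand: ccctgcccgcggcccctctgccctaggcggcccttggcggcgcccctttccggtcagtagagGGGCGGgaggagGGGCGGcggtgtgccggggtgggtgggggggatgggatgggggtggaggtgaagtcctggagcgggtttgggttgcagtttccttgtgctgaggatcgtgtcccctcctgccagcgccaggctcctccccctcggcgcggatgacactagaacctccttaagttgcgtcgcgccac
All 6 windows held a GC box, as did 46.7% of 21045 windows of coding genes. The proximal Gata2 window was the one of the 6 with CCAAT boxes (38.5% of all windows). A GATA motif was in the Gata3 window alone, 36 bases after the start, against 25.8% of all windows. The windows of Gata2, Gata3, Gata5 and Zfpm1 held 22 to 37 CpG sites, and that of Gata1 held 4, where the median window had 13. Such matches describe letters, and say nothing of what binds there.

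The labels were first checked against marker genes. A peak that came to within 1 kb of either end of a gene, called a gene-end peak here, was present in both lists for 62.8% of coding genes and for 6 of 8 germ cell markers, among them Ddx4, Dazl and Stra8. Pou5f1 had one in the Gata2WT list alone and Nanos3 in neither. Of markers of other cells of the ovary, 4 of 6 for supporting cells, 2 of 4 for stroma, 3 of 4 for surface epithelium, 3 of 5 for endothelium, 0 of 4 for macrophages and 3 of 5 for red cells had gene-end peaks in both lists. Amhr2 of the supporting cells and Nr2f2 of the stroma had one in Gata2WT alone, and none of these markers had one in Gata2cKO alone. Peaks in 1 list alone, called cKO-only and WT-only, were 19.7% of all Gata2cKO and 28.5% of all Gata2WT peaks. Peaks given to the supporting cell markers were cKO-only in 2 of 17 (11.8%) and WT-only in 13 of 28 (46.4%), 5 of the 13 at Wt1. For germ cell markers the counts were 1 of 17 (5.88%) and 6 of 22 (27.3%). Stroma had 2 of 21 (9.52%) and 4 of 21 (19.0%), and surface epithelium 2 of 11 (18.2%) and 3 of 12 (25%). Endothelium had 2 of 18 (11.1%) and 6 of 21 (28.6%), and macrophages 3 of 9 (33.3%) and 1 of 7 (14.3%). Red cell markers had 1 of 5 (20%) and 1 of 4 (25%). The macrophage marker Adgre1 and the globin gene Hbb-bt had no peak in either list. A peak at a gene end does not tell which cells it came from, and the part of other cells in the peaks of the 8 genes was not tested.

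Each peak carries the authors' fold enrichment and −log10 q (a larger value marks a surer peak). From these the pileup at the summit and its local background were recovered, in fragments. None of these values were scaled between the pools. At the lowest background, 2.01 fragments in Gata2cKO and 2.19 in Gata2WT, a peak needed 8 fragments at its summit to reach a −log10 p of 3, taken as the authors' threshold because no peak of either list was below it. A site missing from a list fell short of that threshold, which does not show closed chromatin.

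Gata2, the deleted gene, had 3 peaks in the Gata2cKO list and 5 in the Gata2WT list. All 3 Gata2cKO peaks were shared, meaning that they overlapped a Gata2WT peak by at least 1 bp, and 2 Gata2WT peaks had no counterpart in the Gata2cKO list. The distal start lies at the first base of the gene, 88193891 on chromosome 6 (GRCm38; gene to 88207032), and the proximal start lies downstream of it, at 88198664. These correspond to the first exons known as IS, used mainly in blood and neural cells, and IG, used more widely. The difference at the gene itself lay by the distal start. Without the position of the deletion, the peaks cannot serve as a check of the genotype.

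At the proximal start both lists held a wide peak, from 88197224 to 88198928 in Gata2cKO and from 88197033 to 88198938 in Gata2WT. Its highest summit stood 10 bases downstream of the start in Gata2cKO and 65 bases downstream in Gata2WT. The pileup there was 49 fragments on a background of 10.3 in Gata2cKO and 68 on 13.7 in Gata2WT, with a −log10 q of 15.5 and 22.9. The peak was composed of 5 summits in Gata2cKO and 3 in Gata2WT. The start with CCAAT boxes printed above was thus covered in both genotypes.

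At the distal start the Gata2cKO list held no peak: the closest one began 3.33 kb downstream of it. The Gata2WT list held a peak of 535 bp, from 88193999 to 88194533, which began 108 bases downstream of the start and had its summit at 246 bases. It overlapped the noncoding gene Gm38708, as did the peaks upstream of Gata2 and at the proximal start in both lists. Neither list had a peak on the distal window itself. That Gata2WT peak was 2.22-fold enriched, with a −log10 q of 4.27, and its 45 fragments stood on a local background of 19.8. A summit on that background needed 35 fragments to reach the threshold. With the background lowered by the ratio of the lowest backgrounds of the pools, to 18.2, the needed pileup was 33. The true Gata2cKO background at this place is not known, because the list gives values at its peaks alone. At the shared sites upstream and at the proximal start it was 9.53 and 10.3 in Gata2cKO, against 11.6 and 13.7 in Gata2WT.

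**Figure D1:**
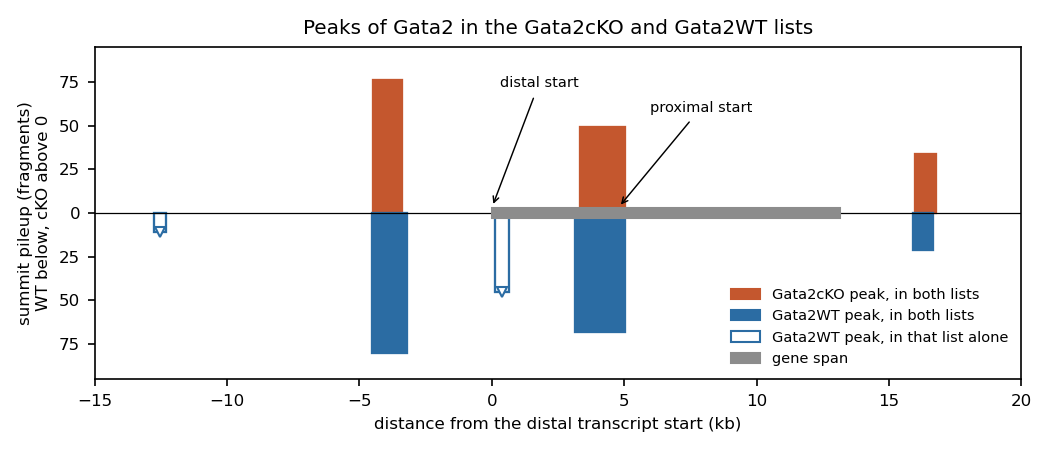
Summit pileup (fragments, vertical axis; Gata2cKO above 0, Gata2WT below 0) of the Gata2 peaks against distance from the distal transcript start (kb). Filled boxes span peaks found in both lists and open boxes those of the Gata2WT list alone; the grey bar is the gene. The open box just right of the distal start reaches 45 fragments, and the box over the proximal start is filled in both lists.

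By strength the WT-only status of this peak was ordinary: of all Gata2WT peaks with a −log10 q of 2 to 5, 52.5% were WT-only, and of the members' 13 such peaks 7 were. By pileup and background it was unlike most. Of 1034 WT-only gene-end peaks, 7 (0.677%) had a pileup of at least 45 fragments and 2 (0.193%) a background of at least that at Gata2, Gata2 itself counted, where their medians were 13 and 2.85 fragments. Of all 189 Gata2WT peaks with both a pileup and a background at least as high as those of Gata2, 2 were WT-only. That set has no upper limit and includes much stronger peaks, such as the Zfpm1 gene-end peak with 193 fragments on 22.5. Of all Gata2WT peaks with a −log10 q of 20 or more, 0.0692% were WT-only. The 2 of 189 is therefore no comparison at the strength of the Gata2 peak. A gene-end peak in Gata2WT alone was itself uncommon, at 2.29% of 21631 coding genes (1.3% in Gata2cKO alone). Among the genes most like Gata2, with a gene-end peak in Gata2WT alone, at least 3 shared peaks and the closest −log10 q at that gene end, were Jade2 (4.40), Gask1a (4.05), Rhobtb1 (4.05) and Cacna1i (4.50), from 70 genes with Gata2 included. Their WT-only gene-end peaks had pileups of 12 to 22 fragments on backgrounds of 2.19 to 6.31, where Gata2 had 45 on 19.8. Because these genes were matched on −log10 q, the higher pileup of Gata2 goes with its higher background.

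Upstream of Gata2, the strongest site of the gene was shared. Its summit stood at -4.04 kb from the distal start in Gata2cKO, with 76 fragments and a −log10 q of 38.7, and at -4.07 kb in Gata2WT, with 80 fragments and 36.5. The site downstream of the gene, with its summit 3.42 kb past the last base in Gata2cKO and 3.20 kb past it in Gata2WT, had 34 fragments and a −log10 q of 17.1 in Gata2cKO against 21 fragments and 6.09 in Gata2WT. The second WT-only peak, 88181121 to 88181597, ended 12.3 kb before the gene, with 11 fragments and a −log10 q of 3.31, close to the threshold. Between the proximal-start peak and the last base of the gene neither list held a peak. That stretch contains the intronic enhancer of Gata2 known from blood stem cells and endothelium.

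Over the 8 genes, most peaks were shared, and the single-list peaks leaned to Gata2WT. Of the 31 Gata2cKO peaks, 2 were cKO-only (6.45%, interval 0.791 to 21.4), against 19.7% of all Gata2cKO peaks. Of the 41 Gata2WT peaks, 12 were WT-only (29.3%, interval 16.1 to 45.5), against 28.5% of all Gata2WT peaks. The WT-only share was thus that of the whole list, and the interval of the cKO-only share includes the value of the whole list. Weighted to the strength of the members' peaks in bins of −log10 q, the shares over all peaks were 21.0% in Gata2cKO, or 6.52 of 31 peaks, and 29.1% in Gata2WT, or 11.9 of 41 peaks.

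At least 1 cKO-only peak was present at 2 of the 8 genes (26.2% of coding genes), Gata3 and Gata4. At least 1 WT-only peak was present at all 8 (35.1% of coding genes). Such counts rise with the number of peaks of a gene. The members had a mean of 3.875 peaks in Gata2cKO and 5.125 in Gata2WT, against 2.16 and 2.40 for coding genes. None of the 8 had more cKO-only than WT-only peaks (13.2% of coding genes), and 7 had more WT-only than cKO-only peaks (25.6%). Gata3 had 1 of each. Of the 6128 coding genes with at least 6 peaks over both lists, 21.5% leaned to cKO-only and 45.7% to WT-only peaks, and of the 7 members in that class 0 and 6 did. With both lists cut to equal length, 0 of the 8 leaned to cKO-only peaks (18.3% of coding genes) and 4 to WT-only peaks (18.4%), namely Gata2, Gata5, Zfpm1 and Zfpm2. Of the 5753 coding genes with at least 6 peaks in the cut lists, 33.0% leaned to cKO-only and 32.0% to WT-only peaks. The 4 leaning members were all in that class.

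**Figure D2:**
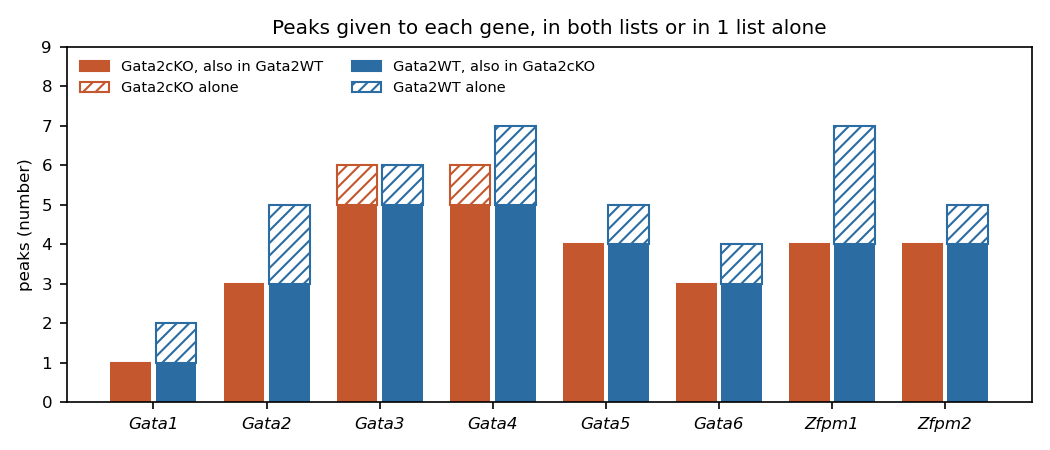
Number of peaks given to each gene (vertical axis), Gata2cKO left and Gata2WT right; solid parts are peaks also in the other list and hatched parts peaks of 1 list alone. Hatched parts total 2 in Gata2cKO and 12 in Gata2WT, with 3 of the 12 at Zfpm1.

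The 12 WT-only peaks were weak within their list. Their −log10 q ran from 1.37 to 6.87 with a median of 3.23, and the 2 cKO-only peaks had 1.23 and 1.56. Those with a −log10 q of at least 5 were 3, all WT-only: 1 inside Gata4 (6.87), 1 about 50 kb from Gata5 (5.93) and 1 beside Zfpm1 (5.21). None of the members' peaks with a −log10 q of 10 or more, 13 in Gata2cKO and 12 in Gata2WT, was in a single list; of all peaks with a −log10 q of 10 to 20, 2.12% in Gata2cKO and 3.74% in Gata2WT were, and of those at 20 or more, 0.0853% and 0.0692%. The 29 shared sites had summits 5 to 445 bp apart in the 2 lists, with a median of 64 bp, and at 4 sites they were more than 250 bp apart.

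**Figure D3:**
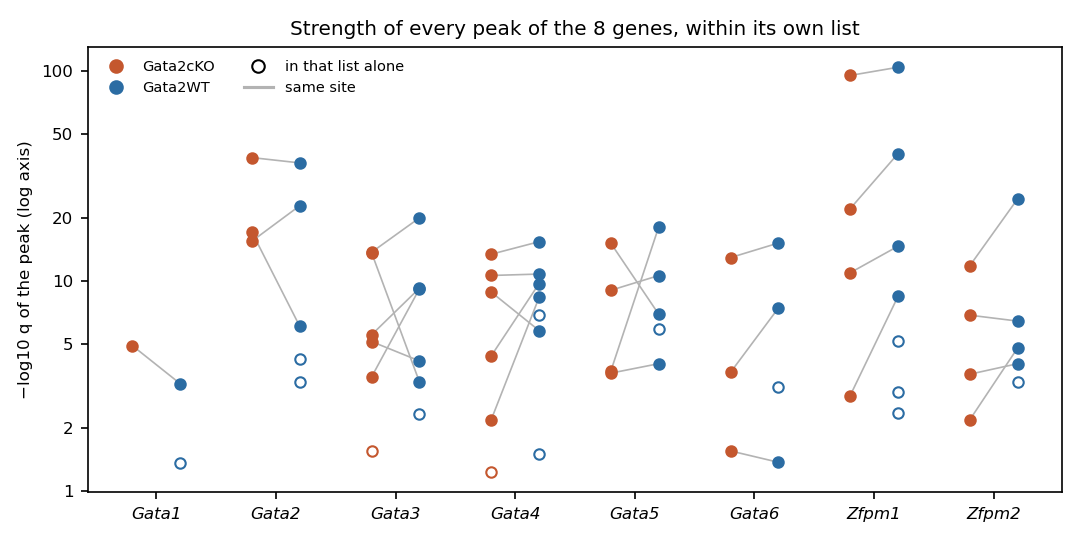
−log10 q of every peak of the 8 genes (log axis), Gata2cKO left and Gata2WT right within a gene; grey lines join the same site and open points are single-list peaks. Open points lie between 1.23 and 6.87, while shared points reach 95.3 in Gata2cKO and 104.2 in Gata2WT, both at Zfpm1.

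The genes differed in where their peaks lay. Gene-end peaks were in both lists at Gata5, Gata6, Zfpm1 and Zfpm2, in Gata2WT alone at Gata2, and in neither list at Gata1, Gata3 and Gata4; of all coding genes 62.8% had one in both lists and 33.6% in neither. Gene-end peaks made up 5 of 31 in Gata2cKO and 6 of 41 in Gata2WT (16.1% and 14.6%), against 34.6% and 32.0% of all peaks given to coding genes. The remainder lay inside the genes (15 and 19) or outside them (11 and 16). The 8 genes had a median of 4 peaks in Gata2cKO and 5 in Gata2WT, where the median coding gene had 1 and 2.

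The other blood-type factors, Gata1 and Gata3, had no gene-end peak. Gata1, on chromosome X, had 1 shared peak inside the gene, at 7962699 to 7963076 in Gata2cKO and 7962836 to 7963225 in Gata2WT, with the summit 4.95 and 4.87 kb downstream of its listed start. It had 14 fragments and a −log10 q of 4.94 in Gata2cKO and 13 fragments and 3.25 in Gata2WT. The Gata2WT list added 1 peak of 8 fragments outside the gene (1.37), the smallest pileup that can pass. No peak of either list touched the listed Gata1 start. Of the 5 red cell markers, 3 had gene-end peaks in both lists, near the 62.8% of coding genes. Klf1 was among the 3, while Alas2 and Hbb-bt had a gene-end peak in neither list.

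Gata3 had 6 peaks in each list, 5 of them shared. The strongest near its listed start, on the reverse strand at 9878600 of chromosome 2, ran from 9879233 to 9879893 in Gata2cKO and 9879177 to 9879893 in Gata2WT, entirely upstream of the window printed above. The pileup was 45 fragments in Gata2cKO and 61 in Gata2WT. A further site, with its summit at -2.48 kb from the start in Gata2cKO and -2.45 kb in Gata2WT, overlapped the noncoding gene 4930412O13Rik and had 27 and 43 fragments, with a −log10 q of 3.50 in Gata2cKO and 9.19 in Gata2WT. A peak of 27 fragments farther upstream, from 9882576 to 9882841, was WT-only (−log10 q of 2.34).

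The sites of Gata3 outside the gene stood on less background, 2.01 to 2.89 fragments in Gata2cKO and 2.19 to 3.04 in Gata2WT. The site 53.7 kb past the 3′ end of the gene had 22 fragments and a −log10 q of 13.7 in Gata2cKO and 11 fragments and 3.31 in Gata2WT. The cKO-only peak of the gene lay on the same side, 21.2 kb away, with 8 fragments and a −log10 q of 1.56. On the other side, 2 shared sites began 1.304 and 8.13 kb past the gene in Gata2cKO, with 16 and 13 fragments, and 1.21 and 8.22 kb past it in Gata2WT, with 21 and 13. At Gata3 the site past the 3′ end thus had the larger value in the Gata2cKO list, and the sites near the start had theirs in the Gata2WT list.

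Among the heart and endoderm factors, the peaks of Gata4 were mostly internal: 5 of 6 in Gata2cKO and 6 of 7 in Gata2WT lay inside the gene. None came within 1 kb of the ends of its RefSeq span on chromosome 14. No start of Gata4 was among the promoter windows, so whether an internal peak lay on a start cannot be told here. The strongest, from 63255219 to 63256382 in Gata2cKO and 63255213 to 63256373 in Gata2WT, had 33 and 39 fragments with a −log10 q of 13.4 and 15.4. The next strongest, from 63244989 to 63245818 in Gata2cKO and 63244929 to 63245937 in Gata2WT, had 32 and 39 fragments with 10.6 and 10.8. The internal peak nearest to an end had its near edge 2.66 kb from it in Gata2cKO and 2.47 kb in Gata2WT, with 17 and 29 fragments. The outer site, 50.2 kb and 50.1 kb from the gene, had 9 fragments in Gata2cKO, next to the minimum, and 19 in Gata2WT.

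Single-list peaks of Gata4 fell on both sides. The cKO-only peak, 63246150 to 63246478, had 14 fragments and a −log10 q of 1.23. The WT-only peaks, both inside the gene, had 17 fragments with 6.87, at 63214910 to 63215371, and 19 fragments with 1.51, at 63251589 to 63251934. GATA4 is abundant in gonadal somatic cells. As given above, 4 of 6 supporting cell markers had gene-end peaks in both lists, beside 6 of 8 germ cell markers and 62.8% of coding genes. The part of somatic cells in the Gata4 peaks was not tested.

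Gata5, on chromosome 2, had 4 shared sites and 1 WT-only peak. The gene-end peak covered the start printed above and overlapped the antisense gene Gata5os. It ran from 180333813 to 180335029 in Gata2cKO, with 19 fragments and a −log10 q of 3.74, and from 180333813 to 180335160 in Gata2WT, with 43 fragments and 18.1. Its summits were 5 bp apart, 430 and 425 bases downstream of the start. The site inside the gene, with its summit 2.70 kb downstream of the start in Gata2cKO and 2.69 kb in Gata2WT, had 35 fragments and 15.1 in Gata2cKO and 27 fragments and 6.95 in Gata2WT. The 2 sites, less than 3 kb apart, thus ranked in opposite order in the lists: the internal one was the strongest Gata5 peak in Gata2cKO and the gene-end one in Gata2WT. The WT-only peak, 180385414 to 180385741, overlapped the noncoding genes B230312C02Rik and Mir1a-1hg, with 16 fragments (5.93).

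Gata6 had 3 shared sites and a WT-only peak 75.5 kb away, which overlapped the noncoding gene Gm35814. Of the peaks of the 8 genes, it was the farthest from the coding gene it was given to. The gene-end peak of Gata6 overlapped the antisense gene Gata6os. That gene-end peak had 24 fragments and a −log10 q of 3.68 in Gata2cKO and 39 fragments and 7.45 in Gata2WT. The highest summits of this peak were 433 bp apart, so the lists marked different positions within it. The next peak into the gene, 1.60 kb from the end in Gata2cKO and 1.57 kb in Gata2WT, was the strongest, with 38 and 51 fragments. The remaining site, of 8 fragments in each list, overlapped by 82 bp.

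The cofactor gene Zfpm1 held the strongest peak of all 8 genes. Its gene-end peak, from 122281069 to 122282124 on chromosome 8 in Gata2cKO and 122281001 to 122282105 in Gata2WT, ended just before the listed start and covered 234 and 215 of the 250 bases printed above. It had 171 fragments and a −log10 q of 95.3 in Gata2cKO and 193 fragments and 104.2 in Gata2WT. It stood within the top 1.29% and 2.03% of its list by −log10 q, and no other member's peak was in the top 10% of either list. It overlapped the noncoding gene Gm39269.

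Zfpm1 also had a strong peak at its other end. That peak, 122335755 to 122337100 in Gata2cKO and 122335805 to 122337112 in Gata2WT, had 53 and 76 fragments with a −log10 q of 22.1 and 40.5. The 2 further shared sites inside the gene had 29 and 14 fragments in Gata2cKO and 38 and 24 in Gata2WT. The 3 WT-only peaks had 13 to 19 fragments and a −log10 q of 2.36, 2.96 and 5.21, the last 5.70 kb outside the gene. Gata4 also had 3 single-list peaks, 1 of them cKO-only.

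Zfpm2, on chromosome 15, spans 449.6 kb, the longest of the 8 genes, and had 4 shared sites and 1 WT-only peak. Its gene-end peak was among the widest of the members, from 40654506 to 40656360 in Gata2cKO and 40654506 to 40656372 in Gata2WT, with 4 summits in each list. It had 27 fragments and a −log10 q of 11.8 in Gata2cKO and 47 fragments and 24.7 in Gata2WT. The other shared sites, 1 deep in the gene and 2 beyond its far end by 50.7 kb and about 59 kb, had 9 to 15 fragments in Gata2cKO and 12 to 15 in Gata2WT. The WT-only peak, 33.1 kb beyond that end, had 11 fragments (3.31).

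**Figure D4:**
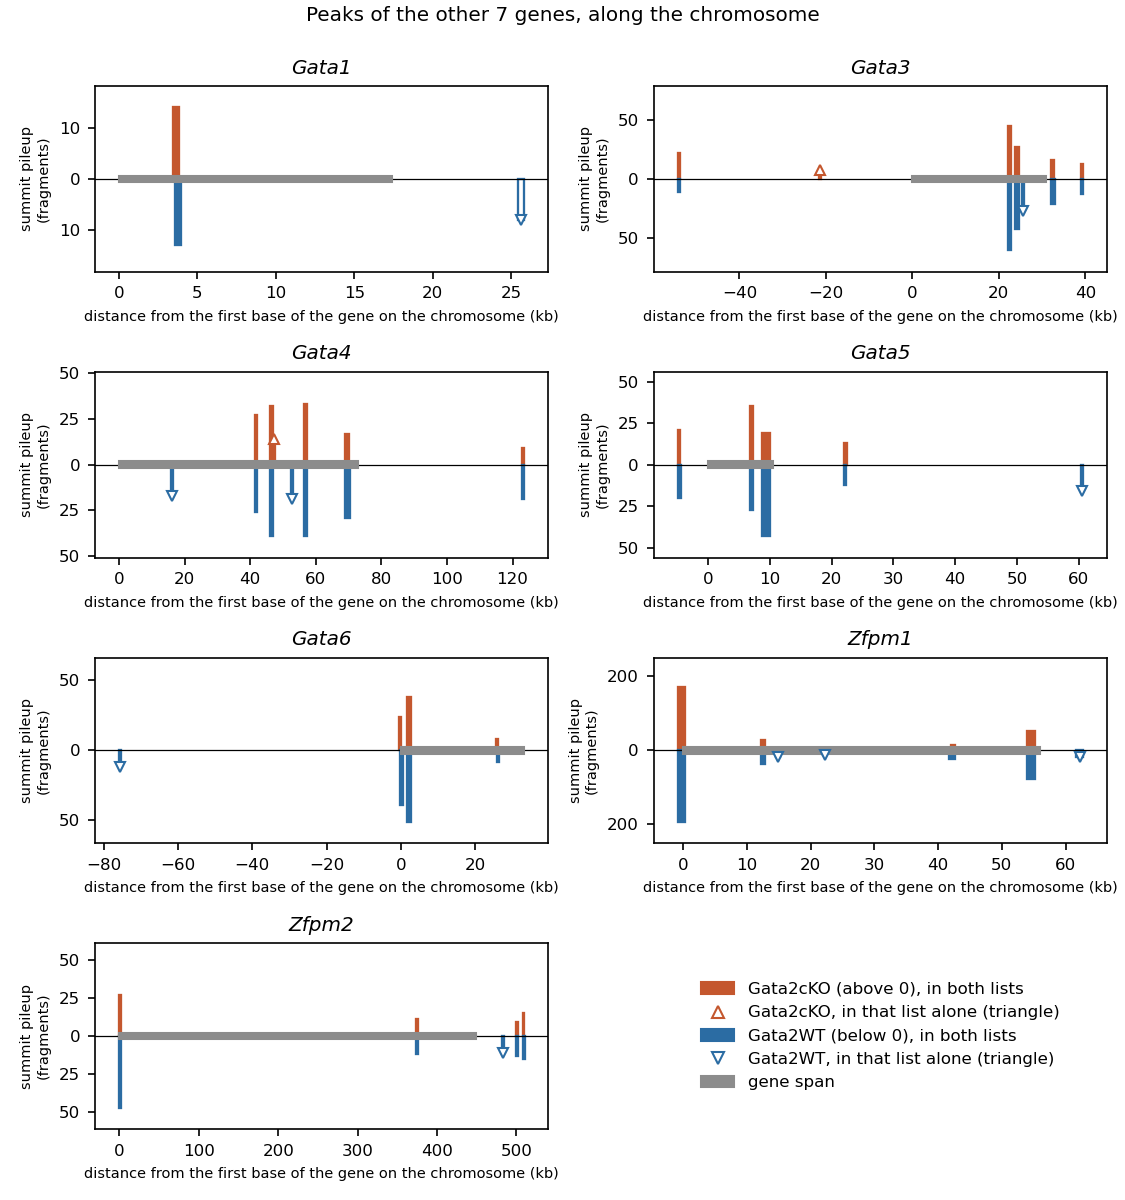
Summit pileup (fragments, vertical axis; Gata2cKO above 0, Gata2WT below 0) of the peaks of the other 7 genes against distance from the first base of each gene on the chromosome (kb). Grey bars are the genes and triangles mark peaks of 1 list alone; narrow peaks are drawn wider than scale so that they show. Zfpm1 reaches 171 and 193 fragments at its left end, and Gata1 no more than 14.

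Pooled over the 8 genes, peaks more often stood on a raised local background than in the whole lists, though not at every gene: no Gata1 peak, no Gata2cKO peak of Zfpm2 and 1 of its 5 Gata2WT peaks reached 4 fragments of background. A background of at least 4 fragments was under 16 of 31 Gata2cKO peaks and 23 of 41 Gata2WT peaks (51.6% and 56.1%), against 36.6% and 38.4% of all peaks. Among peaks with such a background, the members' median fold enrichment was 4.57 in Gata2cKO and 4.18 in Gata2WT, where all peaks had medians of 7.59 and 7.36. Their median pileup was 33.5 and 39 fragments, against 54 and 57 for all peaks. The gene-end peak of Gata2 was the extreme of the WT-only ones, with the highest background and the highest pileup of the 12.

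**Figure D5:**
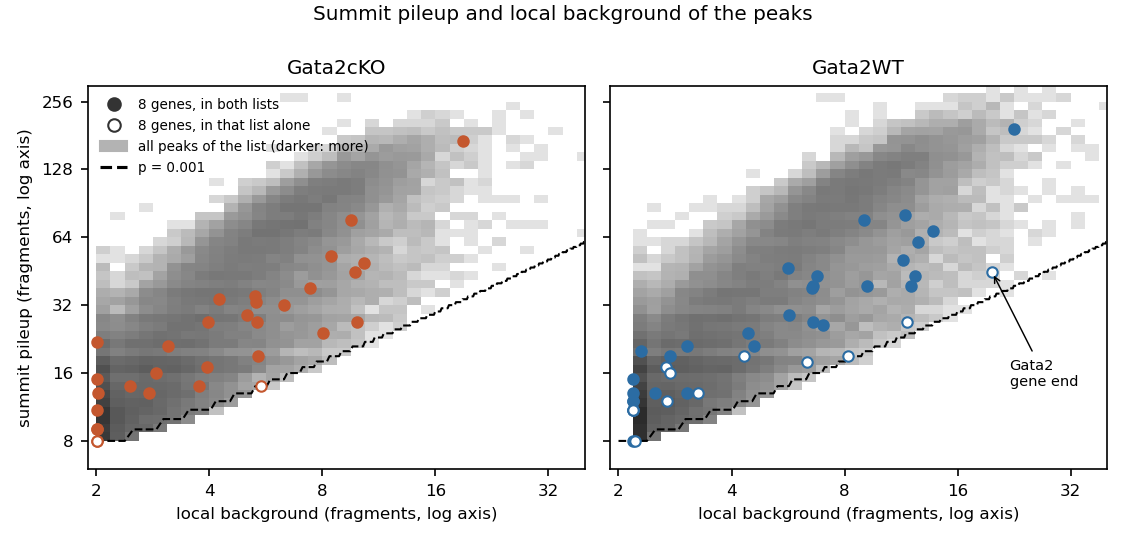
Summit pileup against local background (fragments, log axes) of the members' peaks over the density of all peaks of the list (grey), Gata2cKO left and Gata2WT right; the dashed line is the pileup needed at the authors' threshold. Filled points are shared and open points single-list peaks. The Gata2 gene-end peak, at 45 fragments on 19.8, lies to the right of the other open points.

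Genes whose products resemble or join GATA and FOG proteins were placed beside the 8, in 4 lists. All 9 genes with GATA-type zinc fingers, among them the oogenic factor gene Zglp1, had gene-end peaks in both lists. Of their peaks, 13 of 48 were cKO-only and 16 of 52 WT-only (27.1% and 30.8%), beside 19.7% and 28.5% of all peaks. Mta3, of the NuRD complex, had 6 cKO-only and 2 WT-only peaks, Rere 4 and 8, and Gatad2b 0 and 2.

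The 10 corepressor genes bound by FOG proteins, of the NuRD complex and CtBP, had gene-end peaks in both lists for 9 and in Gata2cKO alone for Chd3 (−log10 q of 3.24). Single-list peaks were 10 of 37 in Gata2cKO and 7 of 33 in Gata2WT (27.0% and 21.2%, beside 19.7% and 28.5% of all peaks). Mbd2, a methyl-DNA binding subunit, had 4 of the 10 cKO-only and 0 WT-only peaks, and Hdac2, a histone deacetylase, 0 and 2.

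Of the 11 genes of the GATA-LDB1 complex and its blood partners, 4 (Cbfa2t3, Ldb1, Lmo2 and Runx1) lacked a gene-end peak in either list and 7 had one in each. Single-list peaks were 9 of 49 in Gata2cKO and 27 of 66 in Gata2WT (18.4% and 40.9%, beside 19.7% and 28.5% of all peaks). The E protein gene Tcf12 had 1 and 7, and Cbfa2t3 and Erg had 1 and 3 each, as did Fli1, which was named after its values were seen. Of the 11 gonadal partners and targets of GATA4 and FOG2, 7 had gene-end peaks in both lists, 2 in neither, and Amhr2 and Nr2f2 in Gata2WT alone (3.07 and 2.71). This list had 0 cKO-only of 31 peaks and 13 WT-only of 42 (0% and 31.0%, beside 19.7% and 28.5% of all peaks). Wt1, a somatic gonad factor, had 0 and 5, and Amhr2, Nr2f2 and Emx2 had 0 and 2 each. Several genes of this list, among them Wt1 and Amhr2 of the supporting cells and Nr2f2 of the stroma, were also markers above. Their peaks were counted in both places, so the lists are not separate observations. The median difference of WT-only minus cKO-only peaks per gene was 0 in the zinc finger and corepressor lists, 2 in the blood list and 1 in the gonadal list.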

How the data were processed

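ATAC-seq peaks of germ cells from 2 Gata2cKO and 2 Gata2WT samples were analysed, grouped by the labelled genotype. The submitters' processing notes name MACS2 2.2.6, Bowtie2 2.3.5.1, Trimmomatic 0.39, Picard 2.23.0 and SAMtools, on GRCm38 (mm10). The sources used here do not give their settings, the Tn5 shift, the handling of duplicates or the way replicates were combined. A combined list hides differences between replicates and weighs the deeper one more.

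The authors' lists give for each peak a fold enrichment (a ratio of summit pileup to local background, with 1 added to both), a −log10 p and −log10 q, and a deposited score that holds 10 times the −log10 p without its decimals. None is scaled between lists. Rows with the same interval became 1 peak, which kept the highest summit, on the 19 autosomes and X, from 52236 rows in Gata2cKO and 58357 in Gata2WT. The summit pileup and background were solved from the fold enrichment and −log10 p. A whole number of fragments was found within 0.001 in −log10 p for 99.993% and 99.994% of peaks. On simulated data it was recovered for 100% of 1835 peaks. Read numbers were not analysed here, so depth is known only through the background of each pool. Because that background may depend on fragment length as well as depth, pileups were not compared by ratio.

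Overlaps were computed with numpy 2.4.6 and pandas 2.3.3, checked against bedtools 2.31.1, and intervals with scipy 1.17.1. Gene spans came from RefSeq (GRCm38.p6), which gives no exons here. A promoter inside a gene span therefore counts as inside the gene. All 8 genes are named; from the 4 related lists, genes are named whose gene-end status differed, or which had the largest difference in single-list peaks (at least 2; up to 3 per list). A gene that the rule for likeness to Gata2 also takes is not reported here. The members and lists were chosen with earlier results of these data known. Alternatives covered the overlap, threshold, list length, merging of rows, distances and gene set.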

Additional observations from a re-analysis of the deposited data

How the results depend on the processing

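Over 10 alternatives, 53 of 60 family totals stayed near their value, meaning within the interval of a share or within 1.5 times of a count. The exceptions came from stricter thresholds and from counting every row. With a −log10 q of at least 3 in both lists, 0 of 25 Gata2cKO peaks were cKO-only (0%; 16.0% of all peaks). With at least 5 in the counted list, 0 of 18 Gata2cKO peaks were cKO-only (0%; 4.74% of all) and 3 of 25 Gata2WT peaks WT-only (12%; 7.61% of all). The totals were then 18 peaks in Gata2cKO and 25 in Gata2WT, and gene-end peaks remained at 2 genes in Gata2cKO. With every row counted, the Gata2WT total was 63. Fewer peaks pass a stricter threshold by construction. The cKO-only share also rose with other overlap rules, though it stayed inside its wide interval. With an overlap of at least 50% of both peaks, 4 of 31 Gata2cKO peaks were cKO-only (12.9%, against 27.9% of all). WT-only were 14 of 41 (34.1%, against 35.5%). With summits within 250 bp the counts were 6 of 31 (19.4%, against 26.9%) and 16 of 41 (39.0%, against 34.6%). Of 320 counts for single genes, 60 moved by more than 1.5 times. No gene had more cKO-only than WT-only peaks under any of the 10. The number with more WT-only peaks was 3 to 7, lowest with a −log10 q of at least 5 and with the nearest gene taken among all RefSeq genes. At the main setting 13.2% of coding genes leaned to cKO-only and 25.6% to WT-only peaks (21.5% and 45.7% with at least 6 peaks). At equal list lengths the shares were 18.3% and 18.4% (33.0% and 32.0%). The settings reuse the same peaks, so they are not independent of each other. Some of the 60 totals could not change. Another overlap rule leaves peak totals and gene-end counts as they are, and another distance leaves gene-end counts. The Gata2 gene-end peak was WT-only under all but the threshold of 5, which its −log10 q of 4.27 does not reach. No paired analysis was possible because each list combines the replicates of its genotype, and for the same reason no replicate could be left out.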

Other observations

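Peaks around Gata2 that lie nearer to another coding gene were given to that gene and stand outside the counts above. Upstream, from about 46 to 119 kb before the distal start, the Gata2cKO list held 7 peaks given to Rpn1, 1 of them cKO-only, and the Gata2WT list 8, 2 of them WT-only. The strongest of these was shared, with its summit at -109 kb, and had 61 fragments in Gata2cKO and 69 in Gata2WT. Downstream, Dnajb8 and Eefsec received 2 and 3 peaks in Gata2cKO, with 0 cKO-only, and 3 and 4 in Gata2WT, with 1 WT-only each. The WT-only peak given to Dnajb8, 88226198 to 88227103 on chromosome 6, lay 32.8 kb downstream of the distal Gata2 start and had 30 fragments and a −log10 q of 11.6. It was stronger by −log10 q than any single-list peak of the 8 genes. It was picked out after its values were seen.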
